A study of Mus musculus with 8 samples.

Results

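The mouse carboxylesterase genes expressed in liver were followed in RNA-seq counts from FxrKO and Bcl6LKO FxrKO males. The 10 members were the rows named *Ces1b*, *Ces1c*, *Ces1d*, *Ces1e*, *Ces1f*, *Ces1g*, *Ces2a*, *Ces2e*, *Ces3a* and *Ces3b*, chosen by gene symbol, out of 24940 genes in the table. The table held 19 *Ces* rows in all, and the other 9 are described after the members. The 4 FxrKO livers (livers 1 to 4) came from C57BL/6 males that lacked *Fxr* (*Nr1h4*) in the whole body and carried floxed *Bcl6* alleles without Cre. The 4 Bcl6LKO FxrKO livers (livers 5 to 8) came from males with the same *Fxr* and floxed *Bcl6* alleles plus Albumin-Cre, a transgene driven by the albumin promoter that deletes *Bcl6* in hepatocytes. Every liver therefore lacked *Fxr*, and the comparison was of losing hepatocyte *Bcl6* on that background. Cre was carried by every Bcl6LKO FxrKO mouse and by no FxrKO mouse. An effect of Cre itself therefore cannot be told apart from that of losing *Bcl6*. Livers with intact *Fxr* were not analysed here, and the ages of the mice were not given in the sources used here.

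Carboxylesterases are serine hydrolases that split ester, amide and thioester bonds. In hepatocytes most of them sit in the lumen of the endoplasmic reticulum, where they clear ester drugs and pesticides and hydrolyse neutral lipids such as triacylglycerol and cholesteryl ester, some of which then enter very-low-density lipoprotein. Retention in the endoplasmic reticulum depends on a short signal at the carboxyl end of the protein, and a carboxylesterase without it is secreted into plasma.

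The ends of the coding sequences, where that signal is encoded, are given for the members with the largest differences between groups and for their closest relatives. Each line holds the last 30 coding bases before the stop codon, 5′ to 3′ on the gene's strand, in the final exon of the GENCODE M21 transcript (GRCm38, the assembly also called mm10), with the last 4 codons in capitals.
*Ces1b*, chr8:93056890-93056919, minus strand: acagaccctactgagcacAGAGAACACAAA
*Ces1c*, chr8:93099168-93099197, minus strand: acagaccctactgaacacACAGAACACAAA
*Ces1d*, chr8:93166258-93166287, minus strand: aggccatcccacagggaaCATGTTGAGCTC
*Ces1g*, chr8:93302908-93302937, minus strand: aggtcatcccatagggaaCATGTTGAACTG
*Ces2a*, chr8:104741384-104741413, plus strand: aagggttctcaggacaagCATGCAGAGCTG
*Ces2e*, chr8:104933682-104933711, plus strand: aaggggtctcaggagaggCACAAAGAGTTG
*Ces3a*, chr8:105058071-105058100, plus strand: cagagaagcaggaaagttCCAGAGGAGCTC
*Ces3b*, chr8:105093230-105093259, plus strand: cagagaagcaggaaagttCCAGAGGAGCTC
The coding sequences of 8 members, *Ces1e* and *Ces1f* included, ended in a glutamate codon followed by a leucine codon. The remaining 2 members, *Ces1b* and *Ces1c*, ended in CACAAA. *Ces1c* encodes esterase-N, the abundant carboxylesterase of mouse plasma. *Ces3a* and *Ces3b* had the same 30 bases at this end.

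The members fell into 3 subfamilies by sequence. Coding sequences of the same subfamily were 72.1% to 95.3% identical over 17 pairs, and those of different subfamilies 58.7% to 62.4% over 28 pairs. The closest pair was *Ces3a* and *Ces3b* at 95.3%, followed by *Ces1b* and *Ces1c* at 90.9%. Reads of 100 bases were kept only where they aligned to 1 location, so identical stretches were left uncounted. Of all 100-base windows of the transcript, 9.09% in *Ces3a* and 7.68% in *Ces3b* occurred in the other, and 1.29% in *Ces1b* and 1.39% in *Ces1c* did so. For *Ces2a*, 10.7% of the windows also occurred in the gene model *Gm7208*. No window of *Ces1d*, *Ces1e*, *Ces1f*, *Ces1g* or *Ces2e* occurred in another gene's transcripts. Most windows of every member were thus found in no other gene's annotated transcripts. Near matches and genome sequence outside annotated transcripts were not searched, and the assignment of reads was not tested.

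Promoter sequences from RefSeq (GRCm38.p6) were matched for 7 members. They are given for *Ces3b* and *Ces1g*, the members with the largest differences in either direction, and for *Ces1b* and *Ces1c*, which have related promoters. Each line holds the 250 bases before the gene's start, 5′ to 3′ on its strand. Capitals in *Ces3b* and *Ces1g* mark matches to TATAAA, and capitals in *Ces1b* and *Ces1c* mark the longest run of bases that the pair shares.
*Ces3b*, chr8:105083505-105083754, plus strand: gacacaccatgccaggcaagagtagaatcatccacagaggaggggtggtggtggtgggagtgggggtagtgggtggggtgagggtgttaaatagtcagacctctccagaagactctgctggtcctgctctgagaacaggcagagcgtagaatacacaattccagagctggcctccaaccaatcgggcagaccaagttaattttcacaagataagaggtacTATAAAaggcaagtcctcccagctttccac
*Ces1g*, chr8:93337210-93337459, minus strand: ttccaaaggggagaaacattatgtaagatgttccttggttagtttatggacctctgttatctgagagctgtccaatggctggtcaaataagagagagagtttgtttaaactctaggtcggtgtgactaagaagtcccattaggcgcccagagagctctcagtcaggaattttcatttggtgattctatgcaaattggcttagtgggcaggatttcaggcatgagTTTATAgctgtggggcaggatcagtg
*Ces1b*, chr8:93080018-93080267, minus strand: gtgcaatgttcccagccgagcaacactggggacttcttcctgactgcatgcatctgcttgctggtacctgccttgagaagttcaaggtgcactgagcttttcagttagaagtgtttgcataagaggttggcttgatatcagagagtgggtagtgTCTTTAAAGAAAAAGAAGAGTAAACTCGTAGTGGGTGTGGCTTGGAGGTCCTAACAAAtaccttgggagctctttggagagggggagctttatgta
*Ces1c*, chr8:93131284-93131533, minus strand: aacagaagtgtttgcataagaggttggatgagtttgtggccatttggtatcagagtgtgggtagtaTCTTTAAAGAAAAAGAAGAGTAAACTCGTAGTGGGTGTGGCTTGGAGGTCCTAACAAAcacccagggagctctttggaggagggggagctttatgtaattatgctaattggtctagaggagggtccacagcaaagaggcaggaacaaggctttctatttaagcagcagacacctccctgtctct
The shared run was 58 bases long and began 96 bases before the start of *Ces1b* and 184 bases before that of *Ces1c*. TATAAA, the core of a TATA box, lay 30 bases before the *Ces3b* start and, on the opposite strand, 26 bases before the *Ces1g* start, and 13.6% of 32851 promoter windows held it. AGGTCA, a nuclear receptor half-site, was found 226 bases before the *Ces2a* start and in 16.3% of windows. Neither TTCNNNGAA, a STAT5-type motif held by 8.3% of windows, nor the BCL6-type motif TTCCTAGAA, held by 0.411%, occurred in the 7 windows. TTCCTAGAA is one form of TTCNNNGAA, so the 2 searches overlap. Direct repeats of AGGTCA spaced by 1 or 4 bases and inverted repeats spaced by 1 base, held by 0.0396%, 0.0152% and 0.00913% of windows, did not occur in them either. Both strands of the windows, which run from 250 bases before to 50 bases after the start, were searched. *Ces1d*, *Ces1f* and *Ces3a* had no window and were not searched.

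The libraries held 7586241 to 11839503 counts, and 12340 genes passed the filter on low counts. Levels are CPM, counts scaled to library size with TMM factors, which were 1.05 to 1.06 in FxrKO and 0.901 to 0.982 in Bcl6LKO FxrKO livers. Scaling by total counts alone moved the median log2 fold change of all genes by -0.16. *Bcl6*, counted over its whole transcript, was at 56.3, 65.2, 21.2 and 55.6 CPM in FxrKO livers 1 to 4 and at 11.9, 4.61, 5.55 and 7.72 CPM in livers 5 to 8 (log2 fold change -2.72 ± 0.40 SE, edgeR adjusted p = 0.00123). The groups did not overlap, and liver 3 was the lowest of the FxrKO livers. Reads of *Nr1h4* were still counted in both groups, at 60 ± 2.46 and 43.5 ± 3.69 CPM (SD, n = 4 each). Hepatocyte markers were abundant in every liver: 11 of them summed to 76431 to 87180 CPM in FxrKO and 170484 to 196003 CPM in Bcl6LKO FxrKO livers, with 4 called higher and 1 lower (3 lower with total counts alone or without liver 6), and without *Alb*, the albumin gene, left out after its values were seen, to 37731 to 41761 and 37141 to 49050 CPM.

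Many markers of other liver cells were higher in Bcl6LKO FxrKO livers. Of the measured markers, 7 of 10 stellate and fibroblast, 4 of 7 cholangiocyte, 3 of 10 macrophage and 3 of 10 endothelial genes were called higher in edgeR, beside 16.2% of all tested genes. On all livers, 0 of them were called lower by edgeR with TMM factors, DESeq2 or limma voom. At an unadjusted p under 0.05, 1 cholangiocyte gene was lower in edgeR and in DESeq2. In edgeR, 1 cholangiocyte gene was called lower with total counts alone and also without liver 3. With at least 10 counts required in every liver, 1 cholangiocyte gene was called higher in place of 4. Their summed levels went from 231–327 CPM in FxrKO to 468–586 CPM in Bcl6LKO FxrKO livers for stellate and fibroblast markers, from 58.9–85.8 to 111–218 CPM for cholangiocyte markers, from 386–548 to 541–871 CPM for macrophage markers and from 207–281 to 291–369 CPM for endothelial markers. Of the lymphocyte markers 1 was tested and called higher, a call lost when liver 3, 4, 6 or 7 was left out, and their sum was 8.8 to 12.2 CPM in FxrKO and 15.9 to 22.5 CPM in Bcl6LKO FxrKO livers. The intestinal markers *Alpi*, *Sis*, *Cdx1* and *Cdx2* had no counts in any liver, although their whole list, which includes genes that liver also makes, summed to 346 to 464 and 938 to 2155 CPM with 1 of 2 tested genes called in each direction. The part of other cells in the carboxylesterase results was not tested. In whole liver, fewer cells of a type and less RNA per cell cannot be told apart.

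Both *Ces3* genes and both *Ces2* members were lower in Bcl6LKO FxrKO livers, whereas *Ces1c* and *Ces1g* were higher and the other 4 *Ces1* members did not pass the test. Calls here mean p under 0.05 in the quasi-likelihood test of edgeR after Benjamini-Hochberg adjustment over all 12340 tested genes. In all, 6 of the 10 members were called, beside 29.7% of all tested genes. Of them, 4 were called lower, beside 13.5%, and 2 were called higher, beside 16.2%. Over all genes that is 1665 lower and 1994 higher, and with total counts alone it was 2949 lower and 1404 higher. The levels of the 2 groups did not overlap for 7 members, beside 31.3% of tested genes, with 5 of the 7 lower (15.2% of tested genes) and 2 higher (16.1%). The median log2 fold change of the 10 members was -0.19, and that of all tested genes was 0.01. The plot of levels by liver shows each member on its own scale.

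**Figure D1:**
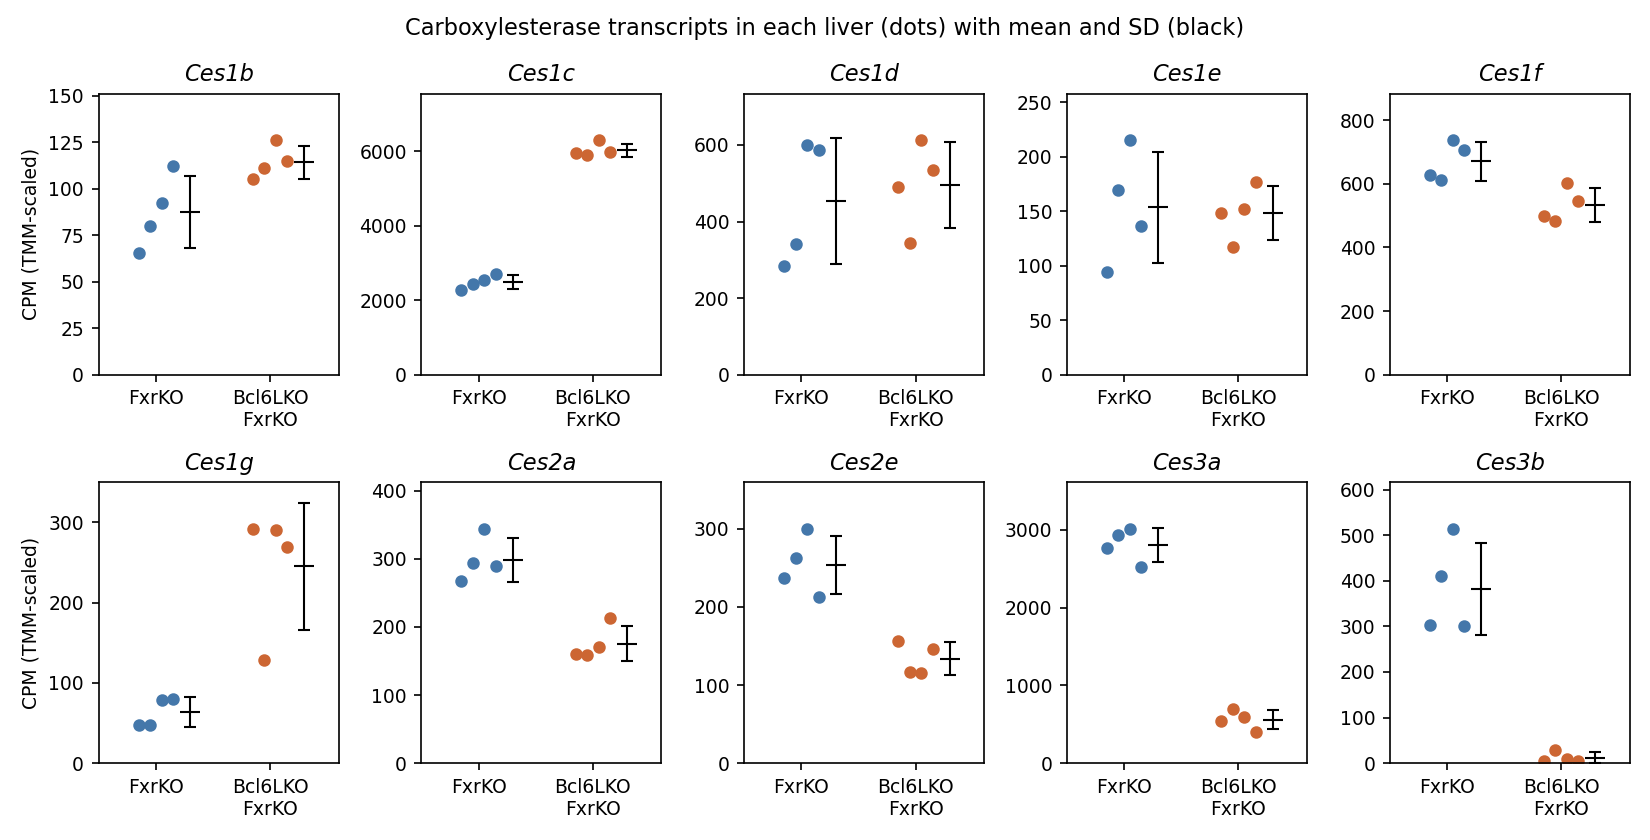
TMM-scaled CPM of each member (vertical axis, from 0) in the 4 FxrKO livers (blue dots, livers 1 to 4 from left to right) and the 4 Bcl6LKO FxrKO livers (orange dots, livers 5 to 8), with the mean and SD in black. *Ces3a* lies at 2521 to 3011 CPM in FxrKO and at 402 to 702 CPM in Bcl6LKO FxrKO livers, while *Ces1c* lies at 2285 to 2710 and 5901 to 6294 CPM.

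The *Ces3* genes, liver carboxylesterases whose natural substrates are less well known, changed the most. *Ces3b* (NM_144511, plus strand, chr8:105083755-105093591 in mm10, as are all gene positions given here) was at 303, 411, 514 and 302 CPM in FxrKO livers 1 to 4. In Bcl6LKO FxrKO livers 5 to 8 it was at 4.94, 28.9, 9.84 and 3.81 CPM, which rested on 42 to 238 counts per liver. The highest of these was liver 6, and it still lay far below every FxrKO liver. *Ces3b* was 32.9-fold lower in Bcl6LKO FxrKO than in FxrKO livers (log2 fold change -5.04 ± 0.68 SE, 95% interval -6.64 to -3.43, edgeR adjusted p = 0.00147). Without liver 6 its log2 fold change was -5.96. Of all tested genes, 0.284% had a lower log2 fold change.

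*Ces3a* (NM_198672, plus strand, chr8:105048599-105058414) was among the 2 most abundant members in FxrKO livers, at 2759, 2938, 3011 and 2521 CPM in livers 1 to 4. It was at 541, 702, 590 and 402 CPM in livers 5 to 8. The groups were far apart, and liver 6 was again the highest of its group. *Ces3a* was 5.03-fold lower in Bcl6LKO FxrKO than in FxrKO livers (log2 fold change -2.33 ± 0.17 SE, 95% interval -2.69 to -1.97, edgeR adjusted p = 5.06e-07). For both genes the exact two-sided permutation test over the 70 orderings of the 8 livers gave p = 0.029, the smallest it can give.

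The *Ces2* members, which hydrolyse drug esters and acylglycerols, fell less. *Ces2a* (NM_133960, plus strand, chr8:104734003-104741634) was at 268, 294, 344 and 289 CPM in FxrKO and at 160, 159, 170 and 213 CPM in Bcl6LKO FxrKO livers. Its groups did not overlap, with liver 8 the highest of the lower group, and it fell 1.7-fold (log2 fold change -0.77 ± 0.13 SE, 95% interval -1.05 to -0.49, edgeR adjusted p = 0.000712). *Ces2e* (NM_172759, plus strand, chr8:104926260-104934672) was at 237, 263, 300 and 213 CPM in FxrKO and at 157, 117, 115 and 146 CPM in Bcl6LKO FxrKO livers. It fell 1.89-fold, again with no overlap (log2 fold change -0.92 ± 0.14 SE, 95% interval -1.23 to -0.61, edgeR adjusted p = 0.000392).

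Of the *Ces1* members, *Ces1c* and *Ces1g* rose. *Ces1c* (NM_007954, minus strand, chr8:93099016-93131283), the gene of the secreted esterase whose coding end is shown above, was at 2285, 2430, 2547 and 2710 CPM in FxrKO and at 5947, 5901, 6294 and 5982 CPM in Bcl6LKO FxrKO livers. The spread within each group was small beside the gap between them. It rose 2.42-fold (log2 fold change 1.27 ± 0.12 SE, 95% interval 1.02 to 1.53, edgeR adjusted p = 4.97e-06). *Ces1g* (NM_021456, minus strand, chr8:93302369-93337209), also called esterase-x and studied for its role in liver lipid, was at 47.4, 47.5, 79.1 and 79.9 CPM in FxrKO and at 292, 128, 291 and 270 CPM in Bcl6LKO FxrKO livers. Liver 6 stood apart from the other livers of its group but remained above all FxrKO livers. *Ces1g* rose 3.86-fold (log2 fold change 1.95 ± 0.29 SE, 95% interval 1.29 to 2.60, edgeR adjusted p = 0.000913), and its log2 fold change without liver 6 was 2.15. The least *Ces1g* and the most *Ces3a* and *Ces3b* of the Bcl6LKO FxrKO livers were in liver 6. That liver had the lowest *Bcl6* level of the 8 livers, from 38 counts over the whole transcript. A relation of these levels to that of *Bcl6* was not tested.

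The other 4 *Ces1* members did not pass the test. *Ces1f* (NM_144930, minus strand, chr8:93256236-93279736), a lipid hydrolase, was at 628, 612, 737 and 707 CPM in FxrKO and at 500, 482, 602 and 546 CPM in Bcl6LKO FxrKO livers. The groups did not overlap, and the exact permutation p was 0.029 (n = 4 each). Its log2 fold change was -0.33 ± 0.12 SE with a 95% interval of -0.59 to -0.07, but the edgeR p adjusted over all genes was 0.0516. It passed the threshold in DESeq2 (adjusted p = 0.0201) and limma voom (adjusted p = 0.0221), and in edgeR without liver 7 or without liver 8. *Ces1b* (NM_001081372, minus strand, chr8:93056727-93080017) was at 65.6, 80.2, 92.1 and 112 CPM in FxrKO and at 105, 111, 126 and 115 CPM in Bcl6LKO FxrKO livers. FxrKO liver 4 overlapped the other group (log2 fold change 0.39 ± 0.15 SE, 95% interval 0.07 to 0.70, edgeR adjusted p = 0.0658), and without that liver the log2 fold change was 0.52 with an edgeR adjusted p of 0.0169.

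*Ces1d* (NM_053200, minus strand, chr8:93166072-93197804), the triacylglycerol hydrolase known for supplying lipid to lipoproteins, was at 284, 342, 601 and 587 CPM in FxrKO and at 490, 343, 612 and 535 CPM in Bcl6LKO FxrKO livers. FxrKO livers 1 and 2 were low and livers 3 and 4 high, so the group spanned nearly all the values of the other (log2 fold change 0.13 ± 0.26 SE, 95% interval -0.45 to 0.70, edgeR adjusted p = 0.749). *Ces1e* (NM_133660, minus strand, chr8:93201218-93229619), or egasyn, which holds beta-glucuronidase in the endoplasmic reticulum, was at 93.9, 169, 215 and 136 CPM in FxrKO and at 148, 117, 152 and 177 CPM in Bcl6LKO FxrKO livers. Its groups overlapped as well (log2 fold change -0.05 ± 0.22 SE, 95% interval -0.53 to 0.43, edgeR adjusted p = 0.894). For both genes the intervals leave room for modest changes in either direction. The plot of fold changes sets these wide intervals around 0 beside those of the called genes.

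**Figure D2:**
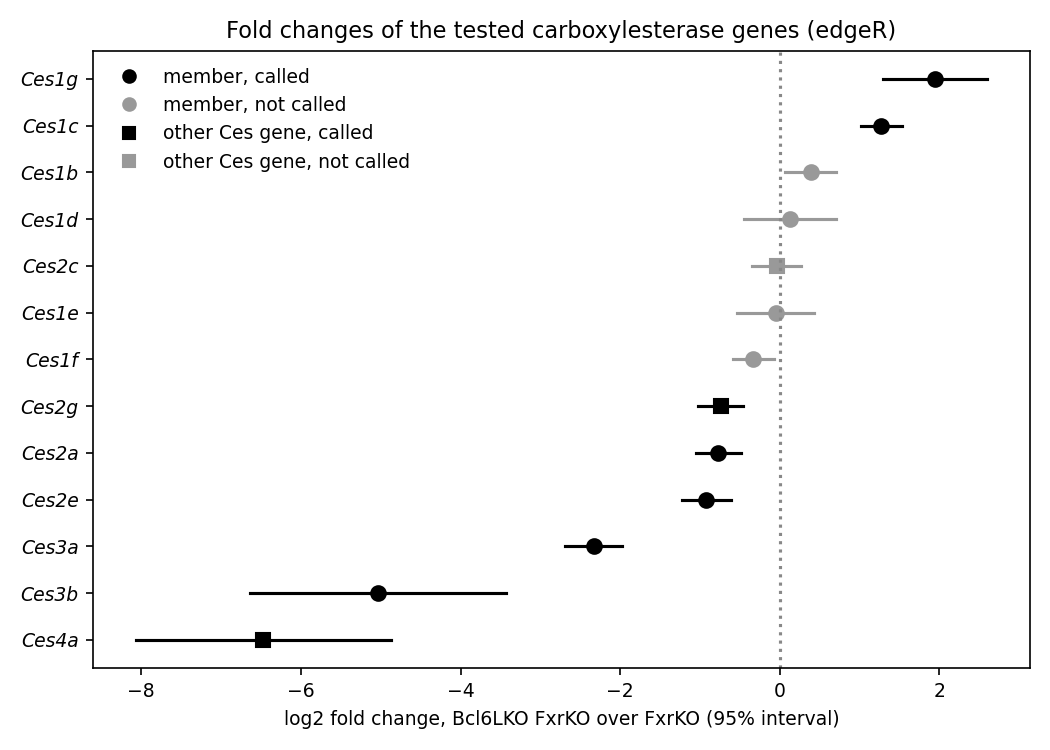
Log2 fold change (horizontal axis, Bcl6LKO FxrKO over FxrKO, n = 4 each) of the 13 tested carboxylesterase genes with 95% intervals from edgeR, not adjusted for the number of genes. Black marks genes called at an adjusted p under 0.05 and grey the others, with circles for members and squares for other *Ces* genes, and *Ces1g* at 1.95 and *Ces4a* at -6.47 are the ends of the range.

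Of the other 9 *Ces* rows, 3 were tested. *Ces4a* had 90, 102, 59 and 37 counts in FxrKO livers and 0, 3, 0 and 0 counts in Bcl6LKO FxrKO livers. It was called lower (log2 fold change -6.47 ± 0.73 SE, edgeR adjusted p = 6.56e-05), and the ratio of the scaled pooled counts, 288 in FxrKO against 3, was 101 with a 95% counting interval of 34.2 to 493. The 3 counts were all in liver 6. Without it every remaining liver of that group was at 0, and the fitted log2 fold change, which then depends on the prior count, was -9.29. *Ces2g* was at 59.8, 56.1, 63.7 and 62.7 CPM in FxrKO and at 43.8, 37.5, 35.2 and 28.7 CPM in Bcl6LKO FxrKO livers and was also called lower (log2 fold change -0.74 ± 0.13 SE, edgeR adjusted p = 0.000956). *Ces2c* was at 38.2 ± 5.74 and 37.1 ± 5.37 CPM (SD, n = 4 each) and was not called, with a 95% interval of -0.35 to 0.27 on the log2 scale. *Ces2c* and *Ces2d-ps*, a pseudogene, shared windows with one another, and 16% of the windows of *Ces2c* occurred elsewhere. The other rows were too low to test: *Ces1a*, *Ces2d-ps* and *Ces5a* had at most 2 counts in any liver, *Ces2b* and *Ces2h* at most 10, and *Ces2f* had none.

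The levels of close relatives changed to different degrees in 3 of 4 pairs. For the 4 pairs of members that are each other's most identical coding sequence, pairs picked after the fold changes were seen, the ratio of their levels per kilobase of transcript was compared between groups. The ratio of *Ces3a* to *Ces3b* was 9.19, 7.2, 5.91 and 8.42 in FxrKO and 110, 24.5, 60.4 and 106 in Bcl6LKO FxrKO livers, a log2 difference of 3.09. The ratio of *Ces1b* to *Ces1c* was 0.0269 to 0.0386 in FxrKO and 0.0166 to 0.0187 in Bcl6LKO FxrKO livers, a log2 difference of -0.87. The 58 promoter bases that this pair shares lie at different distances from the 2 starts, and their bearing on the ratio was not tested. The ratio of *Ces1d* to *Ces1g* was 7 to 8.85 in FxrKO and 1.96 to 3.12 in Bcl6LKO FxrKO livers, a log2 difference of -1.75. None of these 3 ratios overlapped between groups (exact two-sided permutation test, p = 0.029 each, 0.038 after adjustment over the 4 pairs). The ratio of *Ces2a* to *Ces2e* was 1.54 to 1.87 in FxrKO and 1.4 to 2.03 in Bcl6LKO FxrKO livers, and a difference was not detected (log2 difference 0.15, exact permutation p = 0.4).

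Levels of different genes were compared as CPM per kilobase of transcript. In FxrKO livers *Ces3a* at 1380 ± 107 and *Ces1c* at 1367 ± 98.8 (SD, n = 4) led the family and overlapped. *Ces1f* at 353, *Ces1d* at 233, *Ces3b* at 187, *Ces2a* at 153, *Ces2e* at 94.3, *Ces1e* at 74.6, *Ces1b* at 44.8 and *Ces1g* at 27.9 followed. Along that order only the steps from *Ces1c* to *Ces1f*, from *Ces1f* to *Ces1d* and from *Ces2a* to *Ces2e* separated neighbours without overlap between livers. Within each FxrKO liver *Ces2e* was also above *Ces1e*, *Ces1e* above *Ces1b* and *Ces1b* above *Ces1g*. In Bcl6LKO FxrKO livers *Ces1c* alone led at 3306 ± 97.7, then came *Ces1f* at 280, *Ces3a* at 275 and *Ces1d* at 254, which overlapped along that order, and after a step without overlap *Ces1g* at 108, *Ces2a* at 90, *Ces1e* at 72.2, *Ces1b* at 58.6 and *Ces2e* at 49.8, with overlap at every further step. Within each Bcl6LKO FxrKO liver *Ces2a* was above *Ces1e* and *Ces1e* above *Ces1b*. *Ces3b* was last at 5.79, below every liver's *Ces2e*. *Ces3b* thus passed from place 5 to place 10 and *Ces1g* from place 10 to place 5.

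The family total changed little beside its make-up. The 10 members summed to 3559, 3868, 4298 and 3932 CPM per kilobase in FxrKO livers and to 4439, 4318, 4773 and 4468 in Bcl6LKO FxrKO livers, a ratio of 1.15, and when scaled by total counts alone the ratio was 1.03. *Ces1c* made up 32.5% to 37.8% of the FxrKO sum and 72.3% to 74.9% of the Bcl6LKO FxrKO sum. *Ces3a* made up 31.5% to 38.1% and 4.43% to 7.99%. Without *Ces1c*, the 9 other members summed to 2547 ± 254 CPM per kilobase in FxrKO and 1193 ± 98.3 in Bcl6LKO FxrKO livers (SD, n = 4 each), a ratio of 0.468. By subfamily, the *Ces1* share went from 53.6% ± 3.67 to 90.6% ± 1.31, the *Ces2* share from 6.32% ± 0.384 to 3.11% ± 0.409 and the *Ces3* share from 40.1% ± 3.37 to 6.25% ± 1.58. These sums and shares are led by *Ces1c* and *Ces3a* and in the plot of the make-up their bands start about level and then part.

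**Figure D3:**
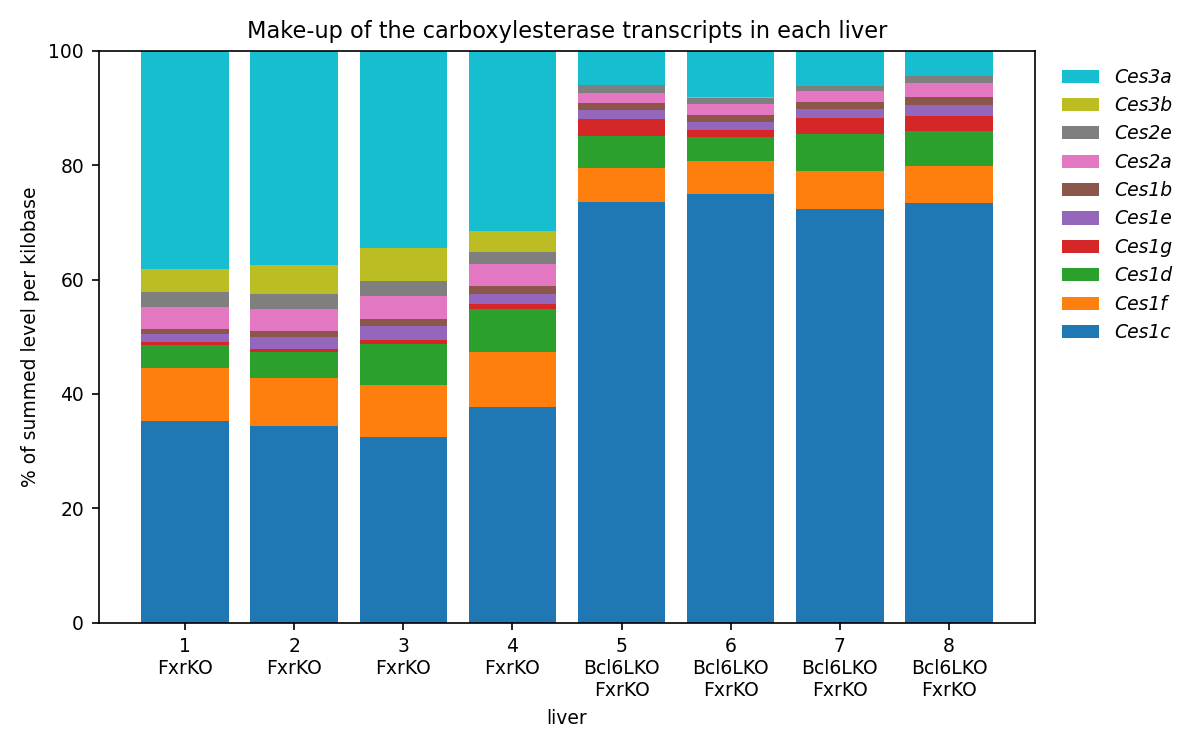
Share of each member in the summed level per kilobase of the 10 members (vertical axis, percent), 1 bar for each liver. *Ces1c* (blue, bottom) covers 32.5% to 37.8% of the bar in FxrKO livers 1 to 4 and 72.3% to 74.9% in Bcl6LKO FxrKO livers 5 to 8, and *Ces3a* (cyan, top) shrinks to 4.43% to 7.99%.

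The members lie in 2 runs of *Ces* genes on chromosome 8. The first, chr8:93020215-93535707, spans 515 kb and holds the *Ces1* genes and *Ces5a*, all on the minus strand. The second, chr8:104734003-105150109, spans 416 kb and holds the *Ces2*, *Ces3* and *Ces4a* genes, all on the plus strand. In the first run *Ces1c* and *Ces1g* rose while the members between them, *Ces1d*, *Ces1e* and *Ces1f*, had log2 fold changes of 0.13, -0.05 and -0.33. In the second run 6 of 7 tested genes were called lower, beside 13.5% of all tested genes, and 0 were called higher by edgeR, DESeq2 or limma voom or at an unadjusted p under 0.05. *Ces4a*, among the 6, had at most 3 counts in any Bcl6LKO FxrKO liver. It passed the filter through its FxrKO counts alone, so only a lower call was open to it. With at least 10 counts required in every liver *Ces4a* was not tested. The last 3 genes of that run, *Ces3a*, *Ces3b* and *Ces4a*, had the lowest log2 fold changes, -2.33, -5.04 and -6.47 in the order of their positions, while *Ces2c*, which lies between *Ces2a* and *Ces2e*, was at -0.04. No other tested gene lay between the *Ces* genes of either run.

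Among the nearest tested genes on either side of the first run, *Mmp2*, a matrix protease gene, was called higher (log2 fold change 1.23, edgeR adjusted p = 0.00164), and *Fto*, *Lpcat2*, *Ogfod1* and *Bbs2* were not called. Beside the second run, *Car7*, *Pdp2* and *Fam96b* before its start were not called. After its end *Cbfb*, which encodes the partner subunit of RUNX factors, and *D230025D16Rik* were called lower (log2 fold changes -0.93 and -0.81, edgeR adjusted p = 0.0102 and 0.000802), and *B3gnt9* was not called. The map of fold changes along the runs sets these positions out for the *Ces* genes.

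**Figure D4:**
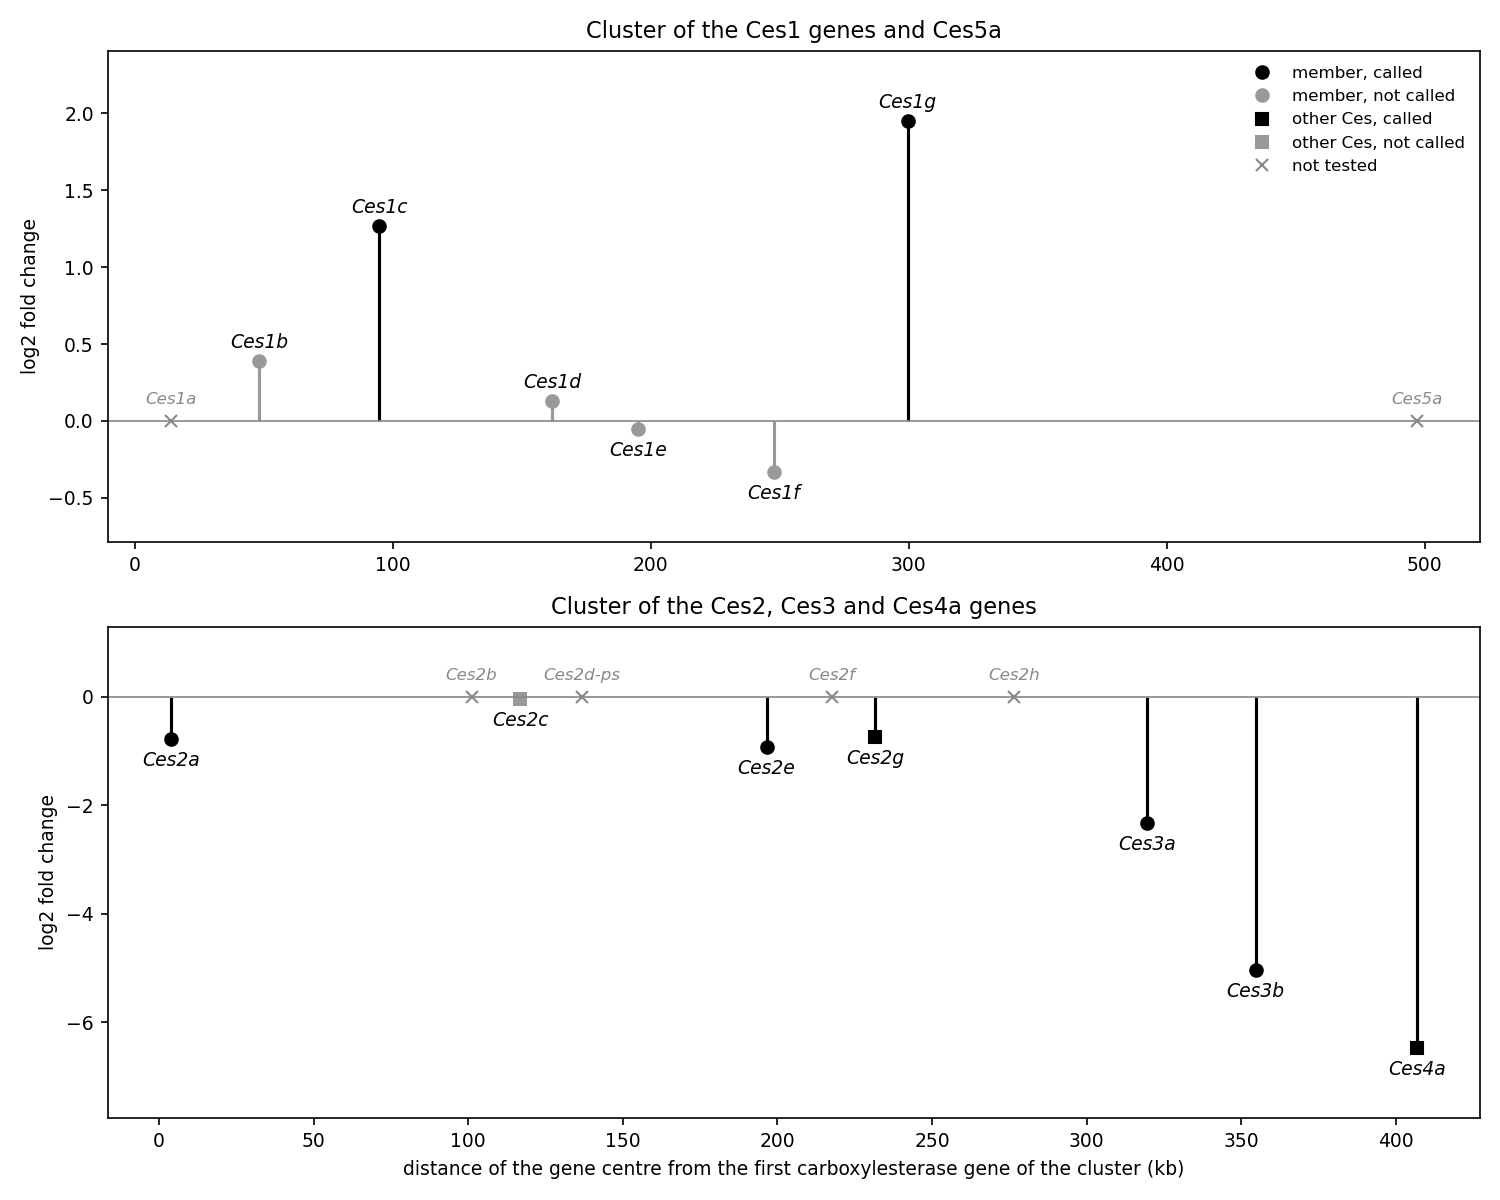
Log2 fold change (vertical axis, Bcl6LKO FxrKO over FxrKO) of each *Ces* gene against its distance in kb from the first *Ces* gene of its run (horizontal axis). Circles are members, squares other tested *Ces* genes, black marks called genes and crosses at 0 mark genes with too few counts to test, with *Ces3a*, *Ces3b* and *Ces4a* falling from -2.33 to -6.47 at the right end of the lower panel.

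The 6 called members kept their direction and their call under all 15 alternatives of normalization, filter, tool and left-out liver. Their log2 fold changes ranged from 1.12 to 1.31 for *Ces1c*, from 1.80 to 2.15 for *Ces1g*, from -0.93 to -0.70 for *Ces2a*, from -1.08 to -0.83 for *Ces2e*, from -2.49 to -2.20 for *Ces3a* and from -5.96 to -4.74 for *Ces3b*. The plot of alternatives shows that *Ces1d* and *Ces1e* fell on both sides of 0.

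**Figure D5:**
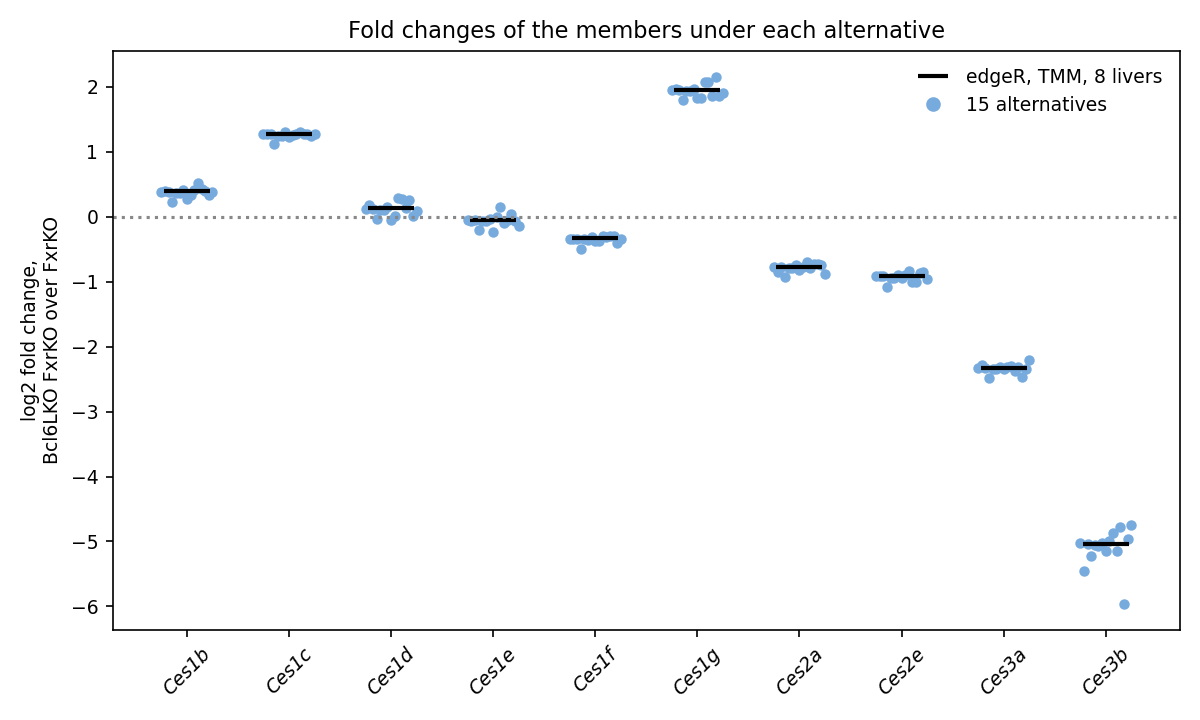
Log2 fold change of each member (vertical axis, Bcl6LKO FxrKO over FxrKO) in the edgeR fit of 8 livers (black bars) and under each of 15 alternatives (blue dots). The dots of *Ces3b* range from -5.96 to -4.74, the lowest being the fit without liver 6, and only those of *Ces1d* and *Ces1e* cross 0.

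Genes known to work beside the carboxylesterases were read from fixed lists. Among other hydrolases of esters and drugs, 4 of 13 tested were called lower and 4 higher, beside 13.5% and 16.2% of all tested genes (median log2 fold change 0.04). Without liver 3 the lower calls numbered 2, and *Rbbp9* was among those lost. *Gusb*, the beta-glucuronidase that egasyn binds, was higher (41.7 and 82.7 CPM, log2 fold change 0.99 ± 0.10 SE), as were the paraoxonase gene *Pon3* (0.59) and the epoxide hydrolase gene *Ephx1* (0.69). *Afmid*, kynurenine formamidase (-1.03), *Aadac*, arylacetamide deacetylase (-0.58), and *Rbbp9*, a serine hydrolase (-0.87), were lower. Of 20 neutral lipid and lipoprotein lipases and related genes, 10 were called lower and 5 higher, beside the same background shares, with a median of -0.28. *Lipc*, hepatic lipase, was at 142 CPM in FxrKO and 20.9 CPM in Bcl6LKO FxrKO livers (log2 fold change -2.77 ± 0.26 SE), and *Pnpla7* (-1.13) and hormone-sensitive lipase *Lipe* (-0.99) were lower. *Abhd2* (2.32), lipoprotein lipase *Lpl* (1.08) and *Pnpla3* (2.21) were higher.

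Of 14 genes for assembly of very-low-density lipoprotein, 4 were called lower and 2 higher, beside 13.5% and 16.2% of all tested genes, with a median of -0.10. The lower calls numbered 2 when liver 1, 2, 3 or 7 was left out, and *Cideb* was among those lost each time. *Mia2* (-0.69), *Sar1b* (-0.40) and *Cideb* (-0.39), which act in export and lipidation of these particles, were lower, and *Tm6sf2* (1.28) and *Apoc3* (0.58) were higher. Of the 2 tested genes for receptors that retrieve endoplasmic reticulum proteins, 0 were called by edgeR, DESeq2 or limma voom and 0 had an unadjusted p under 0.05 (median log2 fold change -0.10), while 1 was called lower with total counts alone. These values are log2 fold changes of edgeR, each with an adjusted p under 0.05 where a direction is named.

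Of 13 transcription factors that control carboxylesterase or liver genes, 6 were called lower and 1 higher, beside 13.5% and 16.2% of all tested genes (median log2 fold change -0.46). The 6 lower calls and the median include *Bcl6*, which Cre deletes, and *Nr1h4*, the gene knocked out in every liver. The lower call of *Bcl6* was fixed by the design. Besides *Bcl6* itself, *Nr0b2*, the gene of small heterodimer partner, was at 12.4 CPM in FxrKO and 0.871 CPM in Bcl6LKO FxrKO livers (log2 fold change -3.85 ± 0.34 SE). It had 84 to 134 counts per FxrKO liver and 5 to 12 per Bcl6LKO FxrKO liver. *Nr0b2* passed the filter through its FxrKO counts, so only a lower call was open to it. With at least 10 counts required in every liver it was not tested. *Ppara*, the fatty acid receptor (-0.99), *Cebpa* (-0.70), *Nr1i3*, the xenobiotic receptor CAR (-0.64), and *Nr1h4* (-0.46) were lower, and *Nfe2l2*, the gene of the antioxidant factor NRF2, was higher (0.38). The *Nr1i3* groups overlapped, and its call was lost when liver 3, 4, 5 or 7 was left out (edgeR adjusted p up to 0.0913). The *Nfe2l2* call was lost with total counts alone, with no filter and when liver 2, 3, 4, 5, 7 or 8 was left out. *Nr1i2*, the xenobiotic receptor PXR (-0.27), *Hnf4a* (-0.18), *Foxa2* (-0.72), *Esrra* (-0.34), *Stat5b* (-0.06) and *Nr1h3* (-0.01) did not pass the test. *Foxa2* passed it in DESeq2 (adjusted p = 0.0303), limma voom (adjusted p = 0.0283) and edgeR with total counts alone (adjusted p = 0.0159), and in edgeR without liver 4 or without liver 6 (log2 fold changes -0.83 and -1.07). Whether any of these factors bears on the carboxylesterases was not tested.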

How the data were processed

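RNA-seq counts of 8 livers were used, 4 per group, grouped by the genotypes of the labels and numbered here in the order of the sample list. The authors prepared stranded mRNA libraries, sequenced 100 bases from one end and mapped them with STAR 2.5.2 on mm10. Only unique alignments with no more than 4 mismatches were kept. The deposited values are raw exon counts from HOMER 4.10, with 1 transcript standing for each gene. The counting options named in the sources give no strand. The paper's methods name DESeq2.

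The main tool was edgeR 4.0.16 in R 4.3.3 (filterByExpr, TMM, robust quasi-likelihood test, Benjamini-Hochberg adjustment over 12340 genes, call at an adjusted p under 0.05). The SE is the log2 fold change divided by the square root of the F statistic. Replicate libraries differed by more than sampling noise (chi-square per degree of freedom 10.7 to 49.3). Exact permutation tests used all 70 orderings. Alternatives were DESeq2 1.42.0, scaling by RLE, by total counts or by TMM without the 50 most counted genes, limma 3.58.1 voom with quality weights, a minimum of 10 counts per liver or no filter, and leaving out each liver in turn. The procedure was tested on simulated data.

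The members, the gene lists and the tests were chosen with earlier results of these data known. Named were all *Ces* genes, *Bcl6*, *Nr1h4*, every tested regulator, up to 3 called genes per list and direction by smallest adjusted p, and the 3 nearest tested genes on each side of each run. A regulator, a neighbouring gene and a motif that these rules give are not reported here, and the regulator counts leave that gene out. Marker genes were given as counts and sums. Coding sequences were aligned globally with Biopython 1.88. Means are given ± SD of CPM, and intervals of count ratios cover counting error only.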

Additional observations from a re-analysis of the deposited data

Results flagged for a closer look

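In groups of 4 livers, a liver was marked when its gap to the nearest other liver, divided by the group's range, exceeded Dixon's critical ratio. Of 131 groups tested 12 were marked, where chance alone gives about 7. Among the *Ces* genes, *Ces1g* was marked in liver 6 (128 CPM against 270 to 292 CPM, ratio 0.866), and so was *Ces2c* in liver 6 (29.1 CPM against 38.8 to 40.4 CPM, ratio 0.856). Liver 6 was also marked for *Hnf4a* (825 CPM against 604 to 635 CPM, ratio 0.859), for *Fam96b* (10.2 CPM against 13 to 13.3 CPM, ratio 0.888) and for the summed stellate and fibroblast markers (586 CPM against 468 to 479 CPM, ratio 0.91). Liver 8 was marked for the summed macrophage markers (871 CPM against 541 to 596 CPM, ratio 0.834). Liver 5 was marked for *Fto* (44.1 CPM against 37.1 to 37.4 CPM, ratio 0.957) and *Lpcat2* (3.83 CPM against 5.08 to 5.34 CPM, ratio 0.831).

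Among FxrKO livers, liver 4 was marked for *Cideb* (227 CPM against 263 to 267 CPM, ratio 0.885), *Apoc3* (1234 CPM against 1586 to 1656 CPM, ratio 0.833) and *Lpcat2* (5.2 CPM against 1.98 to 2.04 CPM, ratio 0.98). Liver 1 was marked for *Ephx1* (579 CPM against 481 to 496 CPM, ratio 0.846). No cause of these values was tested.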

How the results depend on the processing

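Of the members' fold changes, 138 of 150 under the alternatives kept their direction and their side of the threshold, 8 passed it that had not and 4 changed sign. *Ces1f* (log2 fold change -0.33) passed the threshold with DESeq2 (-0.34), limma voom (-0.34), total counts alone (-0.49) and without the 50 most counted genes (-0.35), and over the left-out livers it ranged from -0.40 to -0.29. *Ces1b* (0.39) passed it with limma voom (0.40) and ranged from 0.27 to 0.52 over the left-out livers. *Ces1d* (0.13) changed sign with total counts alone (-0.03) and ranged from -0.05 to 0.29 over the left-out livers, and *Ces1e* (-0.05) from -0.23 to 0.15. At least 10 counts in every liver left *Ces4a* untested, so 1 of the other *Ces* genes was then called lower in place of 2. Over the left-out livers the lower calls ranged from 2 to 4 among the ester and drug hydrolases (main count 4) and from 2 to 4 among the lipoprotein assembly genes (main count 4). Higher calls among the regulators, 1 in the main test, were 0 with total counts alone and with no filter (0 at adjusted p under 0.05 in edgeR), and ranged from 0 to 1 over the left-out livers. Genes not called that changed sign over the left-out livers were *Ces2c* (-0.13 to 0.05), *Nr1h3* (-0.11 to 0.08, and 0.01 with at least 10 counts) and *Stat5b* (-0.21 to 0.06, and 0.03 with limma voom). For the other named genes 458 values kept direction and call, 17 lost the call, 9 gained it and 9 changed sign. The same filter left *Nr0b2* untested. Except for *Ces4a* and *Nr0b2*, whose lost tests follow from the filter of at least 10 counts, the cause of these changes was not tested.

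No paired analysis was run, because the labels state no litter or pairing. Some neighbouring mouse numbers fall in different groups. Whether they mark littermates is not stated and was not examined. With 4 livers per group, modest changes of variable members such as *Ces1d* and *Ces1e* were not detectable, the age of the mice and any batch are not given, and the strand setting of the counting is not given in the sources used here. Fold changes of *Ces3b*, *Ces4a* and *Nr0b2* rest on few counts in Bcl6LKO FxrKO livers.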
